A study of Mus musculus with 27 samples.

Results

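The colon was compared with the cecum in male C57BL/6 mice that ate feed with arsenic. All 9 libraries of these organs on that feed were taken by their labels, 4 of colon and 5 of cecum, out of 27 libraries in the series, and every gene with enough counts was tested. Each library is poly-A RNA of 1 whole organ sample sequenced as paired reads of 150 bp. The feed carried 30 ug of arsenic per g for 60 days from 6 weeks of age, after 7 days of acclimatization, with 10 mice assigned to each diet. Its arsenic was 72.7% arsenite, 19.0% dimethylarsinic acid, 7.3% arsenate and 1.0% monomethylarsonic acid. The same contrast on control feed, 5 colon and 4 cecum libraries of mice of the same strain and sex without added arsenic, was used only to show where the arsenic contrast differed. No genetic alteration was given for any group. The labels do not say which stretch of the colon was taken, whether luminal content or attached fat was removed, or whether libraries with the same number came from 1 mouse. The series calls the animals rats in its design text, whereas its title and the organism of every sample say mouse. In bulk RNA, fewer cells of a type and less RNA per cell cannot be told apart, which holds for every cell marker below.

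The cecum is the blind pouch at the start of the large intestine, where microbes ferment what the small intestine leaves over. The colon follows it, takes up salt and water, forms the faeces and moves them on with a thick muscle coat. The epithelium of both is made of absorptive colonocytes, mucus-secreting goblet cells, hormone-secreting enteroendocrine cells and tuft cells, renewed from stem cells in the crypts. Position along the gut is set in the embryo by homeobox genes, and some of them stay expressed in the adult.

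The genes with the largest differences between the organs are shown by their promoters, because homeobox proteins act by binding short sequences in regulatory DNA. Windows of 300 bases, 250 before and 50 after the RefSeq start, were read from the RefSeq annotation of GRCm38.p6. The 3 motifs searched on both strands were CAATAAA and TCGTAAA, words bound by posterior Hox proteins, and TATAAA, a word of the TATA box, none of which contains another. Of the 15 leading colon-high genes described below, 11 had a window (13 windows in all), and 3 of the 13 windows, those of 2 genes, held CAATAAA, as did 4.6% of all 32851 windows. Of the 15 leading cecum-high genes, 12 had a window (14 in all), and 0 of the 14 held CAATAAA. The word TATAAA was in 7 of 13 windows of colon-high genes (53.8%) and in 3 of 14 windows of cecum-high genes (21.4%), against 13.6% of all windows. TCGTAAA was in 0 windows of either set and in 0.597% of all windows. Such matches describe the letters only. In the windows below, from 5′ to 3′ along the strand of the gene, capitals mark CAATAAA or TATAAA, written TTTATA where it lies on the opposite strand. The first 3 genes were higher in the colon, and Cyp4f15 and Gal3st2c were higher in the cecum. Hottip and Ly6g are shown because they hold CAATAAA, and the others because they had the largest differences among genes with a window. How often that word occurs in the windows shown is therefore not its share among the leading genes.
Tgm3, chr2:130012090-130012389, plus strand: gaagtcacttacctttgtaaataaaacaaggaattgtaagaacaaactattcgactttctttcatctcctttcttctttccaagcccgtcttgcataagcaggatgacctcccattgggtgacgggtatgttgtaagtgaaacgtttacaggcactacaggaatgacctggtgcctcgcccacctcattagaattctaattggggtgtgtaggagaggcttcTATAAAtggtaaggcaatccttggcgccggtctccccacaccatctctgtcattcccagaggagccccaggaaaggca
Hottip, chr6:52262525-52262824, plus strand: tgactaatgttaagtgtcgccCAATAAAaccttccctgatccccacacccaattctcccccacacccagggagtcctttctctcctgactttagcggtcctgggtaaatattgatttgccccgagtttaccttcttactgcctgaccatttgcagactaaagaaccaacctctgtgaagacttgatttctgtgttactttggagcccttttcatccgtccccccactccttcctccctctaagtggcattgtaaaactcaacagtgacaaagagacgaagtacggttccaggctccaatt
Ly6g, chr15:75155011-75155310, plus strand: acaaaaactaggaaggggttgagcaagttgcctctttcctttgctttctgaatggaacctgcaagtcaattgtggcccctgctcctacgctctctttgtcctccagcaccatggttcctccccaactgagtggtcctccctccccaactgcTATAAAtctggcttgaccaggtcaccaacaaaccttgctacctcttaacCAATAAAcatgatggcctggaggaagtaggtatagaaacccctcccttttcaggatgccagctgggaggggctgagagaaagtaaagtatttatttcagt
Cyp4f15, chr17:32685409-32685708, plus strand: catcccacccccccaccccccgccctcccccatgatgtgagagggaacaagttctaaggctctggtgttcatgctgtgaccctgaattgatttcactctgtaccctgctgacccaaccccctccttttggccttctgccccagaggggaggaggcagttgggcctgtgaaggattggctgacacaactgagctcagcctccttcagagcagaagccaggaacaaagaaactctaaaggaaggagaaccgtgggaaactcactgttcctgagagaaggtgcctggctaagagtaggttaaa
Gal3st2c, chr1:93990255-93990554, plus strand: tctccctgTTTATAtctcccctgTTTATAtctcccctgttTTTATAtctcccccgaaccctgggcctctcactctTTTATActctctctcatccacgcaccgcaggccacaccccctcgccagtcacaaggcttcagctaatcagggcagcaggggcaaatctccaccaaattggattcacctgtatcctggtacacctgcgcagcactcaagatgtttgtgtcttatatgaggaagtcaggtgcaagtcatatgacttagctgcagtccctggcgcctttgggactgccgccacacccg

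Colon libraries held 16429521 to 17650459 counts and cecum libraries 16069985 to 17746966, with 23534 to 23804 genes counted in the colon and 22351 to 23119 in the cecum. Pearson correlations of log2 CPM (counts scaled to a common library total) between libraries of a group were 0.9748 to 0.9903 in the colon and 0.9809 to 0.9908 in the cecum. Markers of neighbouring organs were checked first. Stomach markers summed to 0.771 to 2.12 CPM in the colon and 0.353 to 1.81 CPM in the cecum, with 4 of 12 at 0 in all 9 libraries. Markers of pancreatic acinar cells summed to 384, 70.2, 114 and 94.2 CPM in the colon and to 99.8, 47.5, 47.9, 52.6 and 58.2 CPM in the cecum, with colon library 11 far above the rest. Adipose markers summed to 498, 2478, 531 and 985 CPM in the colon and to 605, 603, 472, 784 and 1222 CPM in the cecum, with colon library 12 highest. Paneth cell defensins were at or near 0 in 8 libraries and present in cecum library 14, where Defa24 reached 14.5 CPM. That library also held the most Fabp6, the bile acid binding protein of the ileum, with 1.22, 4.95, 2.51 and 2.86 CPM in the colon, against 0.317, 20.6, 10.4, 69.3 and 0.20 CPM in the cecum.

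The colon and the cecum differed at about 1 of every 2 genes tested, and the large differences were mostly of genes higher in the colon. The edgeR quasi-likelihood test called 8185 of 16285 genes at an adjusted p under 0.05 (50.3%), of which 4499 were higher (27.6%) and 3686 lower (22.6%) in the colon. Among the calls, 2068 were over 2-fold higher and 529 over 2-fold lower, and 147 were over 8-fold higher against 41 over 8-fold lower. The libraries of the organs did not overlap in 7139 genes (43.8%). In 3502 genes (21.5%) every colon library was above every cecum library, and in 3637 genes (22.3%) every colon library was below. The median log2 fold change of all genes tested was 0.02. Without a scaling factor for library composition this median moved to 0.15 and the share of calls that were higher went to 72.4%, against 55.0% with it, so small differences below are relative to the scaling. With 4 and 5 libraries that may share technical sources, the p-values measure the spread between these libraries. Below, values are CPM, listed for libraries 11, 12, 13 and 15 of the colon and 11, 12, 13, 14 and 15 of the cecum, and each difference is the log2 of colon over cecum with its standard error. Counts of list members called are to be read against the 27.6% higher and 22.6% lower of all genes tested. A list near those shares does not stand out from the other genes.

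**Figure D1:**
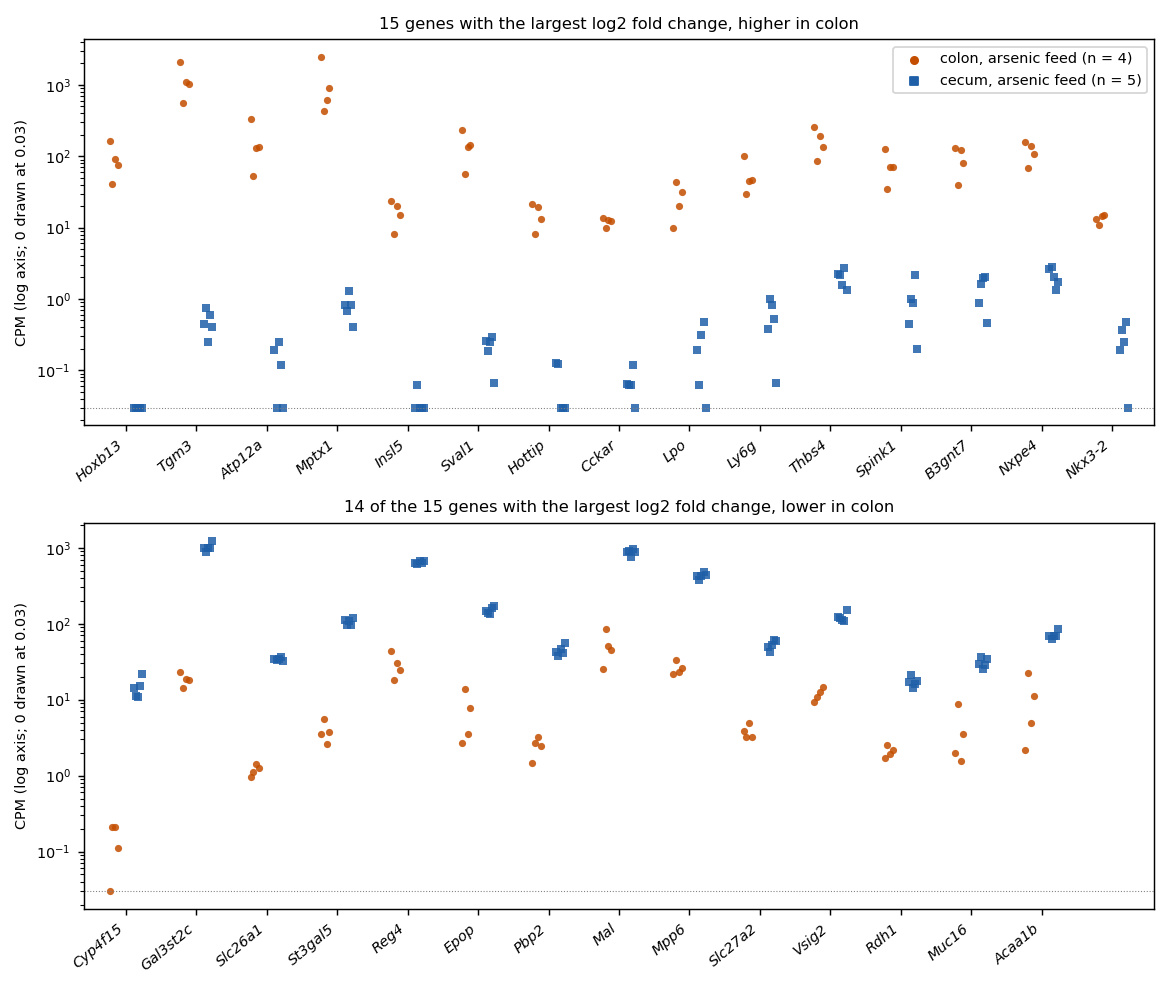
CPM of each library (points, logarithmic axis, with 0 drawn at 0.03) for the 15 called genes with the largest log2 fold change in favour of the colon and for 14 of the 15 with the largest in favour of the cecum, colon as circles (n = 4) and cecum as squares (n = 5). In all 29 genes shown the colon and cecum points are apart, and among colon-high genes the cecum points lie at a few CPM or below and every colon point lies above them.

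Homeobox genes of the most posterior groups were the position markers that separated the organs. Hoxb13, a transcription factor of the hindmost gut, had 163, 41.1, 91.9 and 74.7 CPM in the colon, against 0, 0, 0, 0 and 0 CPM in the cecum. All 6805 of its counts were in the colon, at least 492-fold above a floor of 3 counts per cecum library (0.188 CPM). Hoxd13, its paralog in the Hoxd cluster, had 19.7, 2.5, 3.24 and 5.78 CPM in the colon, against 0, 0, 0, 0 and 0.0668 CPM in the cecum. These were 568 counts in the colon and 1 in the cecum, a ratio of 613 with a 95% exact counting interval of 110 to 24200. Hoxa13, another group 13 paralog, had 72.1, 29.99, 58.2 and 42.5 CPM in the colon, against 2.09, 2.99, 2.37, 1.41 and 1.14 CPM in the cecum. Every colon library was above every cecum library, and Hoxa13 rose by 4.71 ± 0.34 (log2, adjusted p = 7.32e-06). Hottip, a long non-coding RNA transcribed beside Hoxa13 on the opposite strand, had 21.5, 8.1, 19.4 and 13 CPM in the colon, against 0.127, 0.124, 0, 0 and 0 CPM in the cecum, and it rose by 8.13 ± 0.54 (log2, adjusted p = 1.86e-06). Strand use in the counting was not stated, so reads of overlapping neighbours on opposite strands cannot be told apart.

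Most other Hox genes differed less. Among the posterior Hox genes (paralogs 9 to 13), 11 of 16 passed the filter on low counts, and 5 were called higher and 1 lower. Their median log2 fold change was 0.11, against 0.02 for all genes, and it turned to -0.01 without colon library 13. The fitted value of Hoxb13 was the highest of them, so putting it at its bound could not move this median. Hoxa11 had 8.13, 5.22, 5.65 and 6.44 CPM in the colon, against 2.6, 2.49, 4.37, 2.0 and 2.27 CPM in the cecum. Its groups did not overlap, and it rose by 1.26 ± 0.23 (log2, adjusted p = 0.000792). Hoxa10 had 42.1, 26.5, 41.7 and 31 CPM in the colon, against 32.3, 35.4, 33.4, 31.8 and 36.8 CPM in the cecum, which overlap, and a log2 difference of 0.11 ± 0.13 (adjusted p = 0.506). Hoxb9 had a log2 difference of -0.04 ± 0.17 (adjusted p = 0.876). Hoxa9 also missed the threshold, with a log2 difference of -0.38 ± 0.16 (adjusted p = 0.0631). Hoxc10 was the 1 called lower, with 0, 0.32, 0.0523 and 0.385 CPM in the colon, against 0.824, 1.31, 0.812, 0.882 and 0.735 CPM in the cecum, all low levels whose groups did not overlap, and it fell by 2.18 ± 0.56 (log2, adjusted p = 0.00605). Among the anterior and middle Hox genes, 18 of 23 were tested, 2 were called higher and 1 lower, with a median of -0.34. With any 1 library left out, 0 or 1 of them were called higher and 0 to 5 lower.

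Transcription factors outside the Hox clusters went both ways. Nkx3-2, a homeobox factor of gut mesenchyme, had 13.1, 10.9, 14.3 and 15.2 CPM in the colon, against 0.19, 0.373, 0.25, 0.47 and 0 CPM in the cecum. It rose by 5.69 ± 0.33 (log2, adjusted p = 3.08e-07). Of 29 tested transcription factors of position and epithelium, 11 were called higher and 6 lower, with a median of 0.17. In all 58.6% of them were called, near the 50.3% of all genes tested. Nr5a2, a nuclear receptor of crypt cells, had 36.7, 47.1, 43.5 and 48.3 CPM in the colon, against 16.4, 18.2, 17.3, 21.3 and 19.4 CPM in the cecum and rose by 1.3 ± 0.09 (log2, adjusted p = 1.06e-06). Foxf2, a forkhead factor of gut fibroblasts, had 13.2, 12.3, 10.6 and 12.4 CPM in the colon, against 5.39, 6.65, 5.87, 5.23 and 5.15 CPM in the cecum and rose by 1.15 ± 0.12 (log2, adjusted p = 1.25e-05). Both stood higher in every colon library than in any cecum library. Prdm1, a repressor known as Blimp1, had 11.4, 9.27, 7.74 and 7.82 CPM in the colon, against 33.7, 35.3, 35.1, 37.2 and 35.4 CPM in the cecum and fell by 1.91 ± 0.11 (log2, adjusted p = 2.73e-07). Creb3l3, a membrane-bound factor of lipid metabolism, had 25.8, 15.5, 16.5 and 14.8 CPM in the colon, against 100.2, 87.7, 105, 75.9 and 89.9 CPM in the cecum and fell by 2.28 ± 0.18 (log2, adjusted p = 8.04e-06). Cdx2, the caudal factor that keeps epithelium intestinal, had 179, 281, 220.2 and 205 CPM in the colon, against 331, 349.9, 311, 288 and 288 CPM in the cecum and fell by 0.45 ± 0.12 (log2, adjusted p = 0.0069), which passed no longer without a scaling factor (adjusted p = 0.05).

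Other genes at the head of the colon side included enzymes, secreted proteins and receptors. Tgm3, a transglutaminase that cross-links proteins, had 2121, 549, 1084 and 1022 CPM in the colon, against 0.444, 0.746, 0.25, 0.588 and 0.401 CPM in the cecum and rose by 11.29 ± 0.57 (log2, adjusted p = 2.2e-06). Mptx1, a mucosal pentraxin, had 2463, 428, 611 and 895 CPM in the colon, against 0.824, 0.684, 1.31, 0.823 and 0.401 CPM in the cecum and rose by 10.45 ± 0.79 (log2, adjusted p = 2.39e-05). The lowest colon value of each was far above its highest cecum value, and colon library 11 was the highest in both. Ly6g, known as a surface marker of neutrophils, had 102, 29.5, 45.3 and 46.7 CPM in the colon, against 0.38, 0.995, 0.812, 0.529 and 0.0668 CPM in the cecum and rose by 6.67 ± 0.55 (log2, adjusted p = 2.53e-05). S100a8 and S100a9, the abundant neutrophil proteins, averaged 0 and 0.0406 CPM in the colon and 0.0258 and 0 CPM in the cecum and did not pass the filter on low counts. The cell source of Ly6g was not tested. Inhibitors and receptors were among the rest. Spink1, a trypsin inhibitor, had 127, 34.6, 71.2 and 70.4 CPM in the colon, against 0.444, 0.995, 0.875, 2.18 and 0.20 CPM in the cecum and rose by 6.35 ± 0.56 (log2, adjusted p = 4.31e-05). Cckar, the receptor for cholecystokinin, had 13.5, 9.75, 12.8 and 12.4 CPM in the colon, against 0.0634, 0.0622, 0.0625, 0.118 and 0 CPM in the cecum and rose by 7.49 ± 0.28 (log2, adjusted p = 1.52e-08). Thbs4, a matricellular thrombospondin, had 256, 85.4, 195 and 136 CPM in the colon, against 2.22, 2.18, 1.56, 2.71 and 1.34 CPM in the cecum and rose by 6.44 ± 0.40 (log2, adjusted p = 5.61e-06). The 5 cecum values of Thbs4 lay close together and far below the colon. Lpo, which encodes lactoperoxidase, had 9.91, 43.5, 19.8 and 32 CPM in the colon, against 0.19, 0.0622, 0.312, 0.47 and 0 CPM in the cecum, with colon library 12 highest, and rose by 6.95 ± 0.64 (log2, adjusted p = 3.78e-05). B3gnt7, an N-acetylglucosaminyltransferase, had 131, 39.4, 122 and 81 CPM in the colon, against 0.888, 1.62, 2.0, 2.0 and 0.468 CPM in the cecum and rose by 6.1 ± 0.49 (log2, adjusted p = 2.52e-05). Atp12a, Insl5, Nxpe4 and Sval1 completed the 15 with the homeobox genes and Hottip. Sval1 had 236, 56.7, 136 and 142 CPM in the colon, against 0.254, 0.187, 0.25, 0.294 and 0.0668 CPM in the cecum and rose by 9.4 ± 0.61 (log2, adjusted p = 9.03e-06).

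The colon libraries kept an order in these genes. Library 11 was the highest of the 4 in 13 of the 15 colon-high genes, and library 12 was the lowest in 14. Lpo was an exception to both and Nkx3-2 to the first. Among the 15 cecum-high genes, library 12 was the highest colon library in 9 and library 11 the lowest in 9. Library 11 also had the most pancreatic marker RNA and library 12 the most adipose marker RNA, and their part in the order was not tested. Leaving out library 11 left 7539 calls and leaving out library 12 left 7984. All 15 colon-high and all 15 cecum-high genes kept their direction and their call on control feed, where no library is shared.

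Several genes at the head of the cecum side encode enzymes of sulfation, sialylation or lipid metabolism. Gal3st2c, a sulfotransferase that acts on galactose, had 22.8, 14.3, 18.5 and 17.9 CPM in the colon, against 999, 874, 1007, 979 and 1240.2 CPM in the cecum and fell by 5.74 ± 0.16 (log2, adjusted p = 9.83e-09). St3gal5, the sialyltransferase that makes ganglioside GM3, had 3.56, 5.59, 2.62 and 3.8 CPM in the colon, against 110.5, 96.5, 107, 96.6 and 117 CPM in the cecum and fell by 4.71 ± 0.17 (log2, adjusted p = 4.17e-08). Slc26a1, a sulfate transporter, had 0.946, 1.12, 1.41 and 1.27 CPM in the colon, against 34.8, 33.2, 33.9, 36 and 32.3 CPM in the cecum and fell by 4.78 ± 0.11 (log2, adjusted p = 3.17e-10). In these 3 genes the organs were far apart, and the cecum values of each lay close together. Cyp4f15, a cytochrome P450 of the fatty acid hydroxylase family, had 0, 0.213, 0.209 and 0.11 CPM in the colon, against 14.4, 11.1, 10.8, 15.1 and 21.7 CPM in the cecum and fell by 6.63 ± 0.40 (log2, adjusted p = 6.1e-07). Slc27a2, a very long-chain acyl-CoA synthetase, had 3.84, 3.2, 4.92 and 3.19 CPM in the colon, against 49.2, 42.8, 52.4, 61.7 and 58.5 CPM in the cecum and fell by 3.75 ± 0.15 (log2, adjusted p = 2.66e-08). Acaa1b, a peroxisomal thiolase, had 2.17, 22.3, 4.97 and 11.3 CPM in the colon, against 68.1, 63.9, 69.8, 69 and 84.5 CPM in the cecum and fell by 2.75 ± 0.56 (log2, adjusted p = 0.00401). Colon library 12 came closest to the cecum in Acaa1b and also in Mal, a proteolipid of apical membrane sorting, which had 25.4, 84, 50.9 and 44.6 CPM in the colon, against 866, 918, 746, 972 and 867 CPM in the cecum and fell by 4.04 ± 0.32 (log2, adjusted p = 1.86e-05). Reg4, a secreted lectin, had 43.4, 18.4, 30.3 and 24.4 CPM in the colon, against 629.8, 607, 672, 624 and 668 CPM in the cecum and fell by 4.4 ± 0.24 (log2, adjusted p = 1.52e-06). In Reg4 no colon library came near the cecum. Epop, a partner of the polycomb complex PRC2, had 2.67, 13.6, 3.56 and 7.71 CPM in the colon, against 149, 137, 133, 159 and 169 CPM in the cecum and fell by 4.38 ± 0.44 (log2, adjusted p = 7.66e-05). Muc16, a membrane mucin, had 2.0, 8.79, 1.57 and 3.58 CPM in the colon, against 29.2, 36.3, 25.5, 28.6 and 34 CPM in the cecum, with colon library 12 again the highest of its group, and fell by 2.89 ± 0.45 (log2, adjusted p = 0.000739). Mpp6, a membrane scaffold protein, fell by 3.98, Vsig2 fell by 3.32, Pbp2 fell by 4.13 and Rdh1, a retinol dehydrogenase, fell by 2.99 on the log2 scale. None of these 4 overlapped between the organs.

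Salt absorption was split between the organs by transporter rather than shifted as a whole. Of 27 tested genes of sodium, proton and bicarbonate absorption, 9 were called higher and 10 lower in the colon. Their median of 0.09 turned to between -0.06 and -0.01 without cecum library 11, 13 or 15 or colon library 11. Slc9a3, the sodium-proton exchanger NHE3 of the brush border, had 885, 616, 1010.3 and 703 CPM in the colon, against 195, 179, 208, 165 and 168 CPM in the cecum and rose by 2.19 ± 0.14 (log2, adjusted p = 1.44e-06). Atp12a, the proton-potassium pump of the colon, had 333, 52.9, 128 and 133 CPM in the colon, against 0.19, 0, 0.25, 0.118 and 0 CPM in the cecum and rose by 10.45 ± 0.91 (log2, adjusted p = 4.99e-05). Car4, a membrane carbonic anhydrase, had 1733, 1233, 1401 and 1239 CPM in the colon, against 456, 386, 333, 373 and 485 CPM in the cecum and rose by 1.84 ± 0.13 (log2, adjusted p = 2e-06). These 3 were higher in every colon library. Atp1b1, the beta subunit of the sodium pump, had 1408, 1404, 1295 and 1344 CPM in the colon, against 915, 957, 954, 976 and 988 CPM in the cecum and rose by 0.56 ± 0.05 (log2, adjusted p = 8.79e-06). Car1, a cytosolic carbonic anhydrase, had 2452, 9630.0, 4716 and 7478 CPM in the colon, against 27125, 25353, 23726, 28473 and 27413 CPM in the cecum and fell by 2.07 ± 0.35 (log2, adjusted p = 0.00123). Colon library 11 was the lowest and library 12 the highest in Car1, opposite to the order in colon-high genes. Every colon value of Car1 was still far below the cecum. Car2, its close relative, had 639, 548, 651 and 605 CPM in the colon, against 1209, 1182, 1127, 1195 and 1344 CPM in the cecum and fell by 0.94 ± 0.07 (log2, adjusted p = 1.7e-06). Car12, a membrane carbonic anhydrase, had 49.4, 97.7, 84.7 and 86 CPM in the colon, against 435, 399, 389, 410.1 and 429.7 CPM in the cecum and fell by 2.33 ± 0.17 (log2, adjusted p = 3.18e-06). Slc4a7, a sodium-bicarbonate cotransporter, had 154, 104, 156 and 115 CPM in the colon, against 449.8, 408, 393, 397 and 392 CPM in the cecum and fell by 1.57 ± 0.12 (log2, adjusted p = 3.29e-06).

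Chloride and potassium secretion was split in the same manner, with 9 of 21 tested genes called higher and 7 lower and a median of 0.28. Slc12a2, the basolateral cotransporter that loads chloride for secretion, had 135, 164, 172 and 143 CPM in the colon, against 98, 95, 95.3, 96.9 and 83.1 CPM in the cecum and rose by 0.76 ± 0.08 (log2, adjusted p = 1.26e-05). Kcnma1, the large-conductance potassium channel, had 37, 29.4, 30.4 and 31.6 CPM in the colon, against 10.7, 13.7, 9.43, 11.7 and 10.6 CPM in the cecum and rose by 1.57 ± 0.11 (log2, adjusted p = 8.64e-07). Ano1, a calcium-activated chloride channel of secretory cells and of interstitial cells of Cajal, had 360.1, 128, 238 and 204 CPM in the colon, against 20.3, 25.3, 20.6, 24.9 and 18.9 CPM in the cecum and rose by 3.46 ± 0.28 (log2, adjusted p = 2.22e-05). The colon was higher in all 3. Others were lower. Clca4a, a member of a clustered family of near-identical genes whose counts may be split, had 380.3, 303, 577 and 311 CPM in the colon, against 1678, 1718, 1487, 1466 and 1782 CPM in the cecum and fell by 2.00 ± 0.19 (log2, adjusted p = 2.22e-05). Adora2b, an adenosine receptor, had 0.946, 1.7, 1.62 and 2.26 CPM in the colon, against 5.01, 5.1, 7.12, 7.47 and 7.62 CPM in the cecum and fell by 1.93 ± 0.24 (log2, adjusted p = 4.6e-05). Vipr1, a receptor for vasoactive intestinal peptide, had 200.3, 176, 223 and 188 CPM in the colon, against 286, 276, 283, 266 and 298 CPM in the cecum and fell by 0.47 ± 0.07 (log2, adjusted p = 0.000234).

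Water channels divided too. Aqp4, a water channel of basolateral membranes, had 608, 279, 649.6 and 397 CPM in the colon, against 13.3, 14.8, 22.8, 16.9 and 8.29 CPM in the cecum and rose by 5.04 ± 0.37 (log2, adjusted p = 1.42e-05). Aqp1, the water channel of vessels, had 47.1, 57.5, 57.4 and 54 CPM in the colon, against 26.1, 28.9, 30.9, 29.2 and 29.9 CPM in the cecum and rose by 0.95 ± 0.07 (log2, adjusted p = 1.86e-06). Colon values of both were above every cecum value. Aqp8, an apical channel of surface colonocytes, had 1233, 688, 1233 and 784 CPM in the colon, against 2401, 1821, 2235, 2092 and 2404 CPM in the cecum and fell by 1.1 ± 0.19 (log2, adjusted p = 0.000934). Aqp11 had 18.9, 34.5, 24.8 and 32.8 CPM in the colon, against 43.1, 44.1, 44.4, 51.8 and 57.2 CPM in the cecum and fell by 0.74 ± 0.16 (log2, adjusted p = 0.00328). Aqp7, the last of 5 tested aquaporins of 10, was not called, and Aqp3, an aquaglyceroporin, did not pass the filter, with 0.835, 0.16, 0.105 and 0.11 CPM in the colon, against 0.507, 0.187, 0.25, 0.118 and 0.468 CPM in the cecum.

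For short-chain fatty acids, the products of fermentation, the transporter Slc16a1 was lower and the receptors Ffar2 and Ffar3 were higher in the colon. Of 16 genes, all tested, 3 were called higher and 7 lower, with a median of -0.21. Slc16a1, the monocarboxylate transporter MCT1, had 401, 314, 424 and 382 CPM in the colon, against 1267, 1136, 1131, 1207 and 1396 CPM in the cecum and fell by 1.64 ± 0.10 (log2, adjusted p = 2.71e-07). Bdh1, which interconverts ketone bodies, had 82.3, 116, 94.2 and 106 CPM in the colon, against 174, 184, 160.04, 180.2 and 176 CPM in the cecum and fell by 0.76 ± 0.09 (log2, adjusted p = 2.24e-05). Each colon value of both was below every cecum value. Ffar2, a receptor for short-chain fatty acids, had 9.19, 8.31, 13.7 and 8.53 CPM in the colon, against 1.27, 0.995, 2.06, 0.882 and 0.468 CPM in the cecum and rose by 3.17 ± 0.31 (log2, adjusted p = 1.31e-05). Its relative Ffar3 had 2.34, 1.97, 1.88 and 2.48 CPM in the colon, against 0.507, 0.995, 0.75, 0.588 and 1.27 CPM in the cecum and rose by 1.45 ± 0.27 (log2, adjusted p = 0.000807). Acsm3, a mitochondrial medium-chain acyl-CoA synthetase, had 54.2, 29.3, 51.5 and 38.6 CPM in the colon, against 6.02, 6.78, 6.43, 8.41 and 8.09 CPM in the cecum and rose by 2.66 ± 0.19 (log2, adjusted p = 2.23e-06).

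**Figure D2:**
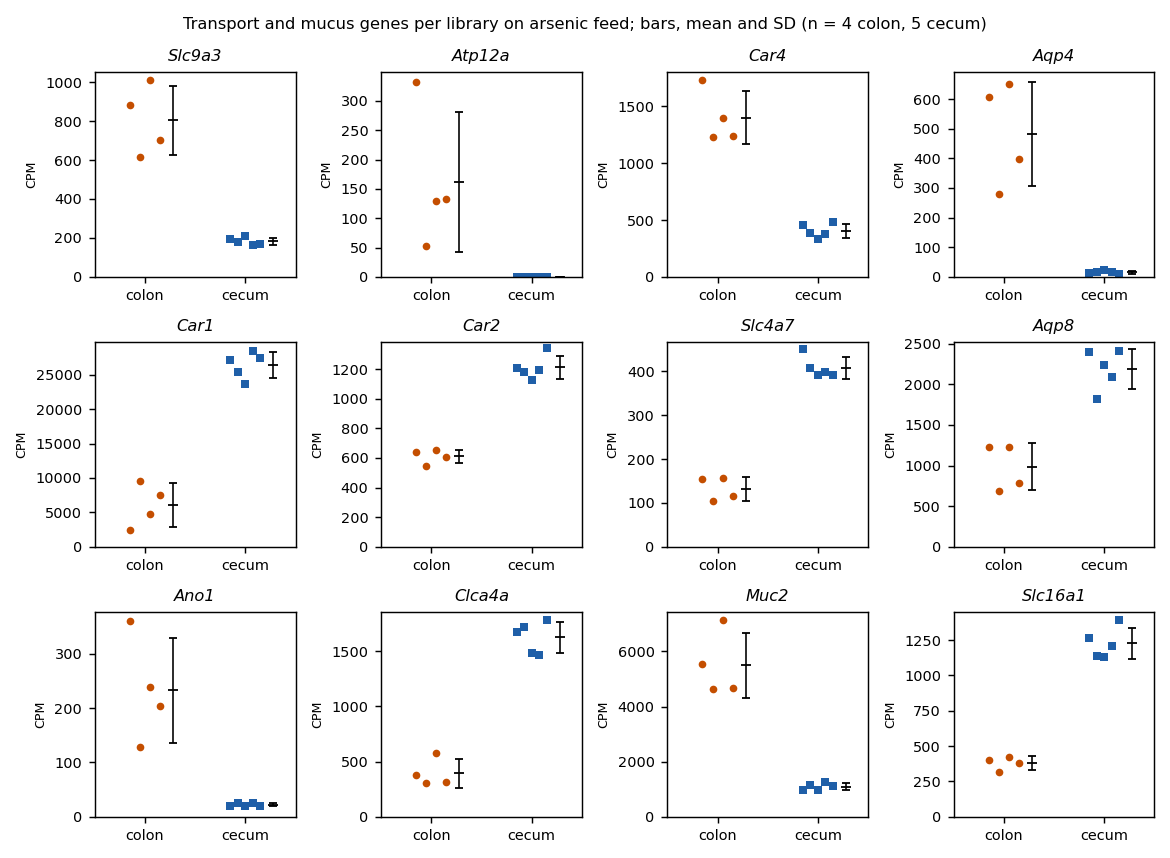
CPM of each library for 12 transport and mucus genes, colon as circles (n = 4) left of cecum as squares (n = 5), with bars for the mean and SD. Slc9a3, Atp12a, Car4, Aqp4, Ano1 and Muc2 lie higher in every colon library, and Car1, Car2, Slc4a7, Aqp8, Clca4a and Slc16a1 lie lower in every colon library.

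Mucus genes were mostly higher in the colon. Of 34 tested goblet cell genes, 22 were called higher and 5 lower, with a median of 1.1. Muc2, the gel-forming mucin of the mucus layer, had 5527, 4623, 7125 and 4677 CPM in the colon, against 962, 1152, 975, 1245 and 1111 CPM in the cecum and rose by 2.39 ± 0.13 (log2, adjusted p = 3.07e-07). Klk1, a tissue kallikrein of goblet cells, had 771, 543, 825 and 664 CPM in the colon, against 255, 222, 263, 248 and 259 CPM in the cecum and rose by 1.54 ± 0.11 (log2, adjusted p = 1.45e-06). Neither had a cecum library near the colon values. Gcnt3, a mucin branching enzyme, was 1 of the 5 lower genes, with 193, 335, 301 and 312 CPM in the colon, against 656, 543, 650.01, 589.7 and 778 CPM in the cecum, and fell by 1.12 ± 0.16 (log2, adjusted p = 0.000199). Spink4, a secreted peptide of goblet cells, had 169, 88.7, 138 and 106 CPM in the colon, against 219.6, 224, 251, 264 and 216 CPM in the cecum and fell by 0.85 ± 0.18 (log2, adjusted p = 0.00257). Muc4, a membrane mucin, had 123, 101, 177 and 112 CPM in the colon, against 184, 194, 183, 215 and 210.2 CPM in the cecum and fell by 0.57 ± 0.14 (log2, adjusted p = 0.00743). Colon library 13 came close to the lowest cecum library in Muc4.

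Secreted antimicrobial genes went in both directions, with 7 of 18 tested called higher and 2 lower and a median of 0.69. The share called was 50.0%, against 50.3% of all genes tested. Ang4, an angiogenin with antimicrobial activity made by goblet and Paneth cells, had 649.6, 158, 271 and 284 CPM in the colon, against 14.4, 8.27, 5.56, 8.23 and 4.48 CPM in the cecum and rose by 5.43 ± 0.54 (log2, adjusted p = 9.09e-05). Pla2g10, a secreted phospholipase, had 76.8, 54.5, 78.7 and 66.5 CPM in the colon, against 39.2, 44.5, 45.6, 46.5 and 52.6 CPM in the cecum and rose by 0.65 ± 0.11 (log2, adjusted p = 0.000579). Both of these were higher in every colon library. Sprr1a, a small proline-rich protein of the cell envelope, had 22.3, 11.9, 32.7 and 16 CPM in the colon, against 90.9, 71.8, 74.6, 59.3 and 69.2 CPM in the cecum and fell by 1.77 ± 0.28 (log2, adjusted p = 0.000816). Lyz1, the lysozyme of Paneth cells, had 5.73, 5.97, 3.71 and 4.73 CPM in the colon, against 16.9, 14.4, 25, 30.7 and 8.09 CPM in the cecum and fell by 1.87 ± 0.37 (log2, adjusted p = 0.00269). Colon values of Lyz1 lay below every cecum value, and cecum library 14, the one with defensin counts, was the highest. Of 19 Paneth cell genes counted, 6 passed the filter, and 2 of the 19 were at 0 in all 9 libraries. Saa1, a serum amyloid protein made by colonic epithelium, had 1367, 692, 879 and 781 CPM in the colon, against 194, 248, 245, 270.2 and 245 CPM in the cecum and rose by 2.01 ± 0.20 (log2, adjusted p = 3.14e-05). Saa3, from the same gene family, ran the other way with 2.62, 15.6, 4.76 and 11 CPM in the colon, against 42.7, 55, 61, 58.7 and 61.4 CPM in the cecum and fell by 2.67 ± 0.45 (log2, adjusted p = 0.00135). Duox2, the epithelial hydrogen peroxide source, had 296, 226, 276 and 205 CPM in the colon, against 75.7, 95.9, 75.8, 43.6 and 57.6 CPM in the cecum and rose by 1.9 ± 0.22 (log2, adjusted p = 0.000126). Colon library 12 was the highest of the colon in Saa3 and nearly the lowest in Duox2. Nox1, the colonic superoxide source, had 5.46, 2.4, 4.81 and 3.47 CPM in the colon, against 13.9, 8.96, 18.6, 12.3 and 8.89 CPM in the cecum and fell by 1.58 ± 0.29 (log2, adjusted p = 0.00104).

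Hormone and tuft cell genes were higher in the colon. Of 21 tested enteroendocrine genes, 17 were called higher and 1 lower, with a median of 1.16. Insl5, the insulin-like hormone of colonic L cells, had 23.5, 8.15, 20.1 and 14.8 CPM in the colon, against 0, 0.0622, 0, 0 and 0 CPM in the cecum. These were 1228 counts in the colon and 1 in the cecum, a ratio of 1320 with a 95% exact counting interval of 237 to 52400. Pyy, peptide YY of L cells, had 51.9, 46.6, 49.9 and 49.5 CPM in the colon, against 12.1, 14.9, 14.7, 14 and 13.4 CPM in the cecum and rose by 1.89 ± 0.08 (log2, adjusted p = 2.3e-08). Gcg, the precursor of glucagon-like peptides in the same cells, had 17, 16.2, 23.5 and 13.5 CPM in the colon, against 13.4, 12.4, 11.8, 14 and 13 CPM in the cecum, which overlap, and rose by 0.5 ± 0.14 (log2, adjusted p = 0.0103). Scg2, a granin of secretory granules, had 41, 28.4, 32.6 and 31.9 CPM in the colon, against 8.24, 9.08, 7.56, 11.6 and 8.09 CPM in the cecum and rose by 1.96 ± 0.14 (log2, adjusted p = 8.9e-07). Neurons also make granins, and Tac1 and Etv1 stand in both the enteroendocrine and the neuron list. The neuron list summed to 513 to 872 CPM in the colon and 159 to 225.5 CPM in the cecum, and its part in the enteroendocrine counts was not tested. The single lower gene was Sct, secretin, with 4.51, 14.2, 6.7 and 11.2 CPM in the colon, against 40.01, 37.4, 32.3, 35.2 and 42.4 CPM in the cecum, which fell by 1.98 ± 0.28 (log2, adjusted p = 0.000379). Of 23 tested tuft cell genes, 15 were called higher and the other 8 were not called, with a median of 0.79. Dclk1, the kinase used to mark tuft cells, had 25.8, 26, 24.7 and 28.5 CPM in the colon, against 11.4, 11.5, 9.31, 11.5 and 9.36 CPM in the cecum and rose by 1.36 ± 0.09 (log2, adjusted p = 6.85e-07). Trpm5, a cation channel of taste-like signalling, had 14.8, 14, 13.7 and 15.9 CPM in the colon, against 5.33, 6.41, 5.5, 5.88 and 4.88 CPM in the cecum and rose by 1.43 ± 0.11 (log2, adjusted p = 1.29e-06). Pou2f3, the factor that specifies tuft cells, was among those 8.

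Proliferation genes were lower in the colon. Of 37 tested genes of the cell cycle and DNA replication, 31 were called lower and 3 higher, with a median of -0.70. Rrm2, a subunit of ribonucleotide reductase, had 6.01, 7.19, 7.53 and 6.11 CPM in the colon, against 39.3, 43.3, 31.2, 34 and 29.7 CPM in the cecum and fell by 2.35 ± 0.13 (log2, adjusted p = 1.66e-07). Ccnb1, the mitotic cyclin B1, had 8.63, 11.7, 12.6 and 11.3 CPM in the colon, against 24.3, 23.3, 22.6, 27.3 and 23.3 CPM in the cecum and fell by 1.08 ± 0.11 (log2, adjusted p = 9.26e-06). Ccna2, the S phase cyclin A2, had 16.6, 18, 20.7 and 19.9 CPM in the colon, against 31.3, 36.2, 32.7, 35.8 and 31.8 CPM in the cecum and fell by 0.79 ± 0.08 (log2, adjusted p = 1.33e-05). No colon library reached the cecum in any of these. The 3 genes called higher were the D cyclins Ccnd1 and Ccnd2 and the mitotic kinase Plk1. Ccnd2 had 95.3, 92.5, 101 and 94.3 CPM in the colon, against 68.7, 85.1, 63.5, 67.5 and 52.5 CPM in the cecum and rose by 0.56 ± 0.11 (log2, adjusted p = 0.00128). Cdkn2b, an inhibitor of the kinases that D cyclins drive, had 86.9, 90.7, 78.8 and 92.6 CPM in the colon, against 33.2, 37.9, 37.9, 38.8 and 37 CPM in the cecum and rose by 1.29 ± 0.07 (log2, adjusted p = 1.01e-07). Stem cell and Wnt target genes were called higher in 12 of 25 and lower in 3, with a median of 0.30. Lgr5, the receptor that marks crypt stem cells, had 3.45, 4.0, 4.92 and 2.64 CPM in the colon, against 4.38, 4.23, 4.56, 5.23 and 4.95 CPM in the cecum, which overlap, and a log2 difference of -0.26 ± 0.18 (adjusted p = 0.248). Lrig1, a growth factor feedback inhibitor of crypt cells, had 82.9, 68.5, 88 and 71.8 CPM in the colon, against 41.1, 49.4, 45.8, 52 and 44.2 CPM in the cecum and rose by 0.79 ± 0.09 (log2, adjusted p = 2.38e-05). The stem cell marker was thus not called while others were. Nkd1, a Wnt feedback inhibitor, had 26.4, 22.4, 20.2 and 26.3 CPM in the colon, against 12.7, 14.1, 11.3, 11.9 and 10.1 CPM in the cecum and rose by 1.04 ± 0.11 (log2, adjusted p = 2e-05). Prom1, a membrane protein of progenitors, had 386, 517, 491 and 479 CPM in the colon, against 870.3, 921, 854, 844 and 984 CPM in the cecum and fell by 0.88 ± 0.08 (log2, adjusted p = 6.8e-06).

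Genes of fat burning and respiration were lower in the colon as groups. Of 23 tested genes of fatty acid oxidation and PPARA targets, 20 were called lower and the other 3 were not called, with a median of -0.57. Pdk4, a mitochondrial kinase that inhibits pyruvate dehydrogenase, had 11.3, 22, 15.2 and 16 CPM in the colon, against 85.7, 82.6, 67.2, 74 and 83.8 CPM in the cecum and fell by 2.24 ± 0.16 (log2, adjusted p = 2.87e-06). Hadha, the trifunctional enzyme alpha subunit, had 287, 365, 357 and 344 CPM in the colon, against 579.8, 602, 543, 567 and 697 CPM in the cecum and fell by 0.77 ± 0.09 (log2, adjusted p = 2.2e-05). Of 40 nuclear genes for oxidative phosphorylation subunits, 37 were called lower and 1 higher, with a median of -0.38. Sdhd, of complex II, had 211, 221, 239 and 221 CPM in the colon, against 378, 358, 374, 398 and 391 CPM in the cecum and fell by 0.72 ± 0.06 (log2, adjusted p = 1.86e-06). Uqcrfs1, the Rieske protein of complex III, had 269, 310.1, 309 and 313 CPM in the colon, against 512, 495, 489.9, 537 and 512 CPM in the cecum and fell by 0.71 ± 0.06 (log2, adjusted p = 2.4e-06). The 1 higher gene was Ndufa4, with 96.2, 125, 108 and 110.4 CPM in the colon, against 83.6, 83.2, 78.1, 82.1 and 73.8 CPM in the cecum, which rose by 0.5 ± 0.07 (log2, adjusted p = 0.000109). Transcripts of the mitochondrial genome were called lower in 4 of 12 and higher in 1, which became 2 and 2 without a scaling factor. Cytochrome oxidase subunit mt-Co1 had 23651, 28042, 28327 and 27954 CPM in the colon, against 49216, 41469, 44758, 45269 and 53292 CPM in the cecum and fell by 0.74 ± 0.09 (log2, adjusted p = 3.29e-05). Cytosolic ribosomal protein genes, which have many processed copies that could take their reads, were called lower in 21 of 43 with a median of -0.15, but in 1 of 43 without a scaling factor. Of 19 tested fat absorption and chylomicron genes, 2 were called higher and 8 lower. Their median of -0.24 turned to 0.29 without colon library 12 and to 0.11 without colon library 13. Fabp2, the intestinal fatty acid binding protein, had 412, 692, 599 and 561 CPM in the colon, against 1670.2, 1495, 1569.6, 1802 and 1766 CPM in the cecum and fell by 1.5 ± 0.13 (log2, adjusted p = 4.11e-06). Its relative Fabp1 ran the other way, with 13.4, 0.906, 1.94 and 6.38 CPM in the colon, against 0.38, 0, 0.687, 0.353 and 0.20 CPM in the cecum, and rose by 4.14 ± 0.94 (log2, adjusted p = 0.00555). Colon library 11 was the highest in Fabp1.

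Conjugation and glutathione enzymes were lower in the colon. Of 24 tested conjugation enzymes and carboxylesterases, 20 were called lower and 4 were not called, with a median of -0.91. Papss2, which makes the sulfate donor PAPS, had 324, 518, 369.8 and 471 CPM in the colon, against 1958, 2103, 1729.8, 2134 and 2008 CPM in the cecum and fell by 2.19 ± 0.13 (log2, adjusted p = 4.45e-07). Sult1d1, a sulfotransferase, had 292, 474, 361 and 426 CPM in the colon, against 1146, 1104, 1112, 1236 and 1208 CPM in the cecum and fell by 1.53 ± 0.12 (log2, adjusted p = 1.97e-06). Of 23 glutathione transferases, 13 were called lower and 10 were not called, with a median of -0.46. Gstm3, of the mu class, had 21.5, 25.9, 24.5 and 26.6 CPM in the colon, against 97.6, 84.3, 69.6, 96.2 and 83.2 CPM in the cecum and fell by 1.75 ± 0.10 (log2, adjusted p = 1.94e-07). Gstk1, of the kappa class, had 38.4, 57.8, 46.5 and 49.8 CPM in the colon, against 115, 103, 98, 117 and 121 CPM in the cecum and fell by 1.15 ± 0.10 (log2, adjusted p = 5.88e-06). No colon library reached the cecum in these 4 genes. Cytochrome P450 genes were divided evenly, with 9 of 23 higher and 9 lower. Cyp2c68, of a family with near-identical members, had 64.6, 29.4, 50.1 and 42.8 CPM in the colon, against 1.2, 1.87, 2.19, 2.35 and 2.14 CPM in the cecum and rose by 4.63 ± 0.26 (log2, adjusted p = 9.41e-07). Cyp2j6 had 54.5, 94.3, 76.5 and 82.1 CPM in the colon, against 195, 188, 199, 206 and 224 CPM in the cecum and fell by 1.35 ± 0.13 (log2, adjusted p = 1.28e-05).

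Genes of arsenic handling and of the response to oxidants were more often lower in the colon of these arsenic-fed mice, with 13 of 24 tested called lower and 4 higher and a median of -0.26. As3mt, the arsenic methyltransferase, had 28, 23.9, 31.7 and 25.3 CPM in the colon, against 31, 34.3, 31.6, 36.4 and 38 CPM in the cecum and fell by 0.28 ± 0.09 (log2, adjusted p = 0.0269). The As3mt call was lost without cecum library 14 (adjusted p = 0.0576), colon library 12 (0.0735) or colon library 15 (0.0825), and without a scaling factor (0.212). Gclc, the catalytic subunit of glutathione synthesis, had 67.9, 119, 89.7 and 111 CPM in the colon, against 215, 234, 262, 293 and 267 CPM in the cecum and fell by 1.34 ± 0.16 (log2, adjusted p = 6.15e-05). Nqo1, a quinone reductase induced through NRF2, had 26.7, 52.7, 38.3 and 53.1 CPM in the colon, against 108, 106, 101, 115 and 130.1 CPM in the cecum and fell by 1.34 ± 0.18 (log2, adjusted p = 0.000245). Slc7a11, the cystine importer, had 1.61, 1.07, 1.67 and 1.65 CPM in the colon, against 7.8, 4.48, 6.5, 3.76 and 2.54 CPM in the cecum and fell by 1.69 ± 0.32 (log2, adjusted p = 0.00099). These 3 were lower in every colon library. Hmox1, haem oxygenase, had 5.23, 7.14, 4.97 and 5.23 CPM in the colon, against 7.8, 8.83, 7.37, 9.17 and 7.69 CPM in the cecum and fell by 0.48 ± 0.14 (log2, adjusted p = 0.0114), with an adjusted p of 0.0617 without a scaling factor. Slc30a1, the zinc exporter, had 53.1, 57.2, 61 and 48.2 CPM in the colon, against 154, 135, 109, 95.4 and 117 CPM in the cecum and fell by 1.1 ± 0.13 (log2, adjusted p = 6.57e-05). Abcc2, an exporter of glutathione conjugates, had 15.5, 10.2, 7.58 and 12.8 CPM in the colon, against 2.41, 3.92, 2.75, 8.64 and 3.01 CPM in the cecum, overlapping through cecum library 14, and rose by 1.52 ± 0.37 (log2, adjusted p = 0.00715). That library, which held the defensins, was the highest of the cecum. Slc34a2, a phosphate transporter, had 63.8, 53.2, 57.8 and 47.4 CPM in the colon, against 11.8, 17, 8.25, 26.3 and 7.15 CPM in the cecum and rose by 2.03 ± 0.35 (log2, adjusted p = 0.00144). Mt1, metallothionein 1, had 47.3, 114, 60.9 and 78.6 CPM in the colon, against 57.6, 57.6, 77, 79.4 and 66.1 CPM in the cecum with colon library 12 highest, and a log2 difference of 0.20 ± 0.24 (adjusted p = 0.509). Gsto1, an omega class transferase that reduces arsenicals, had 244, 409.8, 270.3 and 347 CPM in the colon, against 294, 283, 294, 311 and 281 CPM in the cecum, also highest in colon library 12, and a log2 difference of 0.17 ± 0.13 (adjusted p = 0.293). On control feed, without added arsenic, the same list had a median of -0.52, and none of its genes passed the test of a difference between feeds.

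Muscle and nerve RNA was higher in the colon in nearly every gene of the lists. All 23 smooth muscle contractile genes were called higher, with a median of 1.03, and they summed to 17166, 11845, 13243 and 13673 CPM in the colon, against 8102, 9385, 6767, 7563 and 5875 CPM in the cecum. Acta2, smooth muscle actin, had 1589.7, 1140.1, 1188 and 1291 CPM in the colon, against 788, 896, 625, 689 and 556 CPM in the cecum and rose by 0.93 ± 0.14 (log2, adjusted p = 0.000363). Smtn, smoothelin of contractile muscle, had 391, 259, 284 and 293 CPM in the colon, against 123, 154, 113, 129.8 and 100.05 CPM in the cecum and rose by 1.36 ± 0.14 (log2, adjusted p = 3.36e-05). Colon library 11 had the most smooth muscle RNA. Of 32 tested genes of enteric neurons, glia and interstitial cells of Cajal, 30 were called higher and 1 lower, with a median of 1.68. Snap25, of synaptic vesicle release, had 21.2, 16.4, 17.1 and 17.6 CPM in the colon, against 4.5, 6.09, 4.0, 4.53 and 3.61 CPM in the cecum and rose by 2.04 ± 0.15 (log2, adjusted p = 1.03e-06). Grp, gastrin-releasing peptide of enteric neurons, had 11.7, 7.4, 9.36 and 8.92 CPM in the colon, against 1.01, 1.06, 0.999, 1.65 and 0.668 CPM in the cecum and rose by 3.15 ± 0.22 (log2, adjusted p = 9.22e-07). Kit, the receptor that marks interstitial cells of Cajal, had 66.2, 49.7, 66.7 and 55 CPM in the colon, against 22.9, 22.6, 21.1, 21.8 and 20.1 CPM in the cecum and rose by 1.5 ± 0.09 (log2, adjusted p = 4.34e-07). The lower gene was Ednrb, the endothelin receptor needed by enteric nerve precursors, with 12.1, 14.5, 7.58 and 10.1 CPM in the colon, against 34.6, 33.5, 28.5, 24.5 and 25.1 CPM in the cecum, which fell by 1.35 ± 0.18 (log2, adjusted p = 0.000127).

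Connective tissue and vessel genes followed the muscle. Of 43 tested fibroblast and stromal genes, 32 were called higher and 11 were not called, with a median of 0.99. Sfrp1, a secreted Wnt inhibitor, had 53.2, 29.1, 32.5 and 35.3 CPM in the colon, against 6.91, 8.71, 7.93, 9.06 and 7.42 CPM in the cecum and rose by 2.28 ± 0.17 (log2, adjusted p = 2.91e-06). Lum, the proteoglycan lumican, had 72.7, 58.3, 49.7 and 59.2 CPM in the colon, against 23.7, 22.8, 20.9, 24.1 and 18.4 CPM in the cecum and rose by 1.5 ± 0.11 (log2, adjusted p = 1.54e-06). Of 31 collagen and elastic fibre genes, 26 were called higher and 5 were not called, with a median of 1.20. Col8a1 had 28.2, 14.3, 27.1 and 19 CPM in the colon, against 2.28, 3.17, 2.5, 3.88 and 2.07 CPM in the cecum and rose by 3.04 ± 0.24 (log2, adjusted p = 4.15e-06). Col16a1 had 62.2, 36.4, 48 and 44 CPM in the colon, against 11.2, 13.8, 10.7, 10.3 and 7.82 CPM in the cecum and rose by 2.19 ± 0.18 (log2, adjusted p = 6.24e-06). Of 23 tested endothelial genes, 18 were called higher and 5 were not called, with a median of 1.00. Tie1, a receptor of endothelium, had 13.9, 9.54, 11.1 and 10.6 CPM in the colon, against 4.76, 4.23, 5.81, 4.18 and 4.75 CPM in the cecum and rose by 1.3 ± 0.15 (log2, adjusted p = 2.64e-05). Mesothelial markers of the outer surface summed to 2506, 2351, 2854 and 2410.1 CPM in the colon and to 2987, 2958, 2578, 2745 and 3136 CPM in the cecum, nearly all of it Krt19, which epithelium also expresses. Gene by gene, 2 of the 10 were called higher and 8 were not called, with a median of 0.74. With any 1 library left out, 1 to 6 were called higher and 0 or 1 lower. Skeletal muscle markers summed to 21.3 to 31.5 CPM in the colon and 15.7 to 20.6 CPM in the cecum, with 3 of 14 at 0. Adipose markers, whose sums overlap, were called in 0 of 12 by edgeR (1 at an unadjusted p under 0.05) and in 2 of 12, 1 in each direction, by DESeq2. Red cell markers were called higher in 4 of 5 (2 without cecum library 11 or 13 or colon library 11), with sums of 17.4 to 80.8 CPM in the colon and 10.8 to 21.5 CPM in the cecum. The summed muscle RNA was higher in every colon library, and its part in the other differences was not tested.

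**Figure D3:**
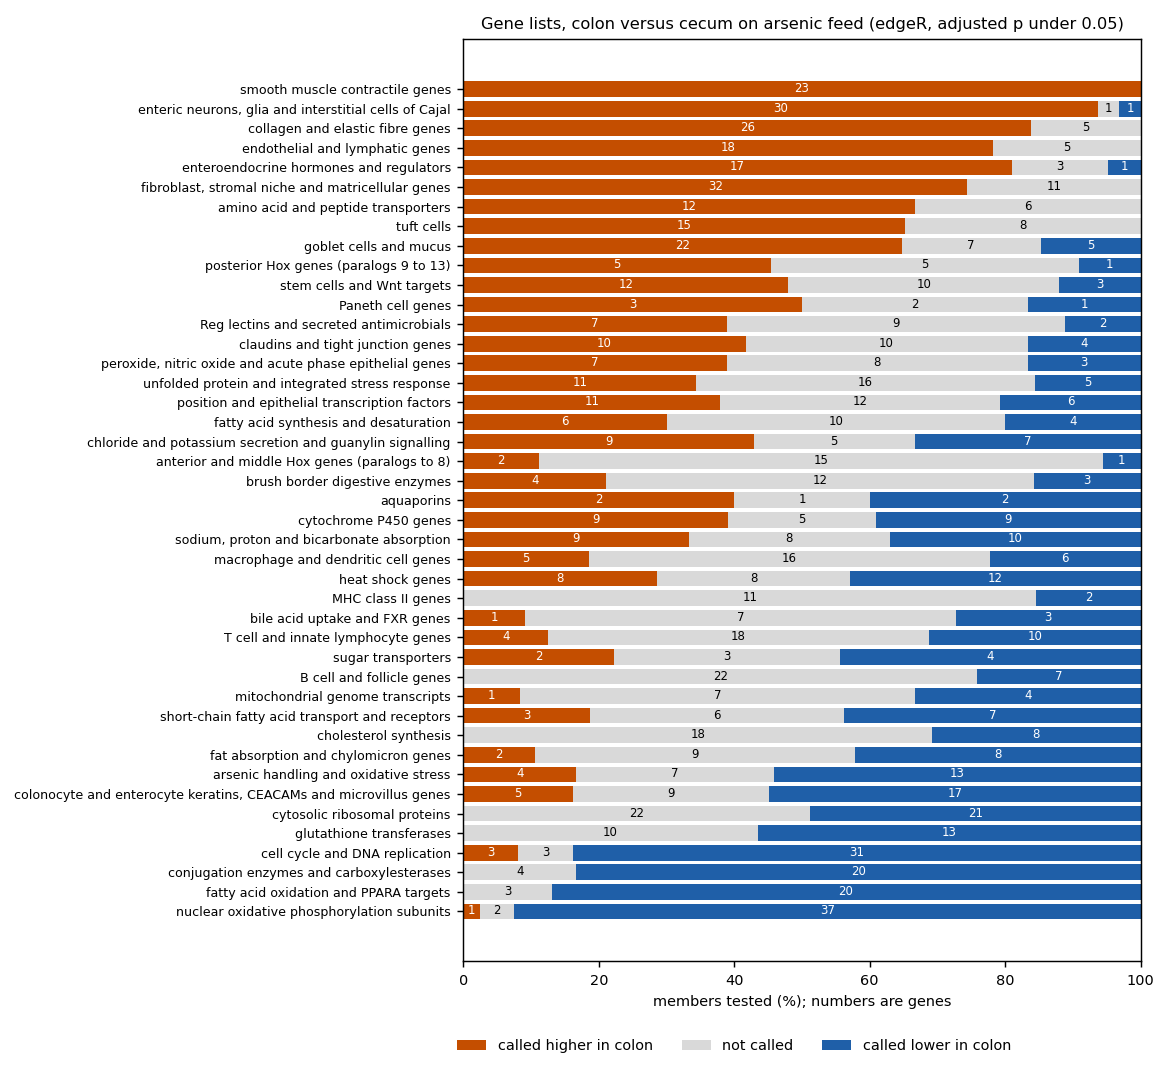
Share of the tested members of each gene list called higher in the colon, not called, and called lower (percent of tested members, with gene numbers in the bars, edgeR adjusted p under 0.05). Smooth muscle genes head the plot with 23 of 23 called higher, and oxidative phosphorylation subunits close it with 37 of 40 called lower.

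B cell genes differed widely among the cecum libraries and little among the colon libraries. The B cell and follicle genes summed to 102, 111, 105 and 93.6 CPM in the colon, against 495, 263, 453, 140 and 56.6 CPM in the cecum. Colon libraries lay together, between the lowest and the next cecum library. Of 29 tested, 7 were called lower and 22 were not called, with a median of -1.78, and the values overlapped between the organs in all 7. Cd79a, a subunit of the B cell receptor, had 6.4, 6.34, 5.23 and 4.57 CPM in the colon, against 34.6, 23.9, 33.7, 9.0 and 3.34 CPM in the cecum and fell by 1.84 ± 0.65 (log2, adjusted p = 0.0449). The Cd79a call was lost, at adjusted p of 0.075 to 0.108, without any 1 of cecum libraries 11, 12 and 13 or of the 4 colon libraries. Without cecum library 15 the list had 23 members called lower and without library 14 it had 14, but it had at most 2 without any 1 of cecum libraries 11, 12 and 13 or of the 4 colon libraries. The labels do not say whether lymphoid follicles lay in the pieces, and their part was not tested. On control feed the median of the same list was 1.30.

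T cell and innate lymphocyte genes were called higher in 4 of 32 and lower in 10, with a median of -0.63. Cd3e, of the T cell receptor complex, had 1.5, 3.46, 2.2 and 2.15 CPM in the colon, against 4.31, 4.79, 4.5, 3.29 and 3.74 CPM in the cecum and fell by 0.77 ± 0.23 (log2, adjusted p = 0.0139). Klrd1, CD94 of killer cells, had 1.61, 2.4, 2.62 and 3.14 CPM in the colon, against 8.24, 6.97, 7.56, 6.76 and 6.68 CPM in the cecum and fell by 1.52 ± 0.18 (log2, adjusted p = 3.33e-05). The number called higher dropped to 1 without colon library 15 and to 2 without cecum library 13. The number called lower dropped to 4 without cecum library 11 or 12 and to 5 without cecum library 13 or colon library 11, 13 or 15. Genes of mast cells, eosinophils and neutrophils went in both directions, with 3 of 8 tested called higher and 3 lower and a median of 0.24. Ly6g and Gata2 were among the higher ones. Mcpt1, a mast cell protease of the mucosa with near-identical relatives, was among the lower ones. It had 0.668, 0.426, 0.157 and 0.385 CPM in the colon, against 3.49, 7.96, 3.37, 2.0 and 7.75 CPM in the cecum and fell by 3.52 ± 0.53 (log2, adjusted p = 0.000283). Jchain, the joining chain of IgA, had 612, 321, 261 and 358 CPM in the colon, against 367, 268, 269, 200.2 and 236 CPM in the cecum, which overlap, and a log2 difference of 0.59 ± 0.27 (adjusted p = 0.103). That gene passed the threshold without colon library 13 (adjusted p = 0.049). Among MHC class II genes, 2 of 13 were called lower (0 to 5 with 1 library left out), and H2-Eb2, with 1.06, 0.959, 0.994 and 0.771 CPM in the colon, against 8.94, 3.98, 9.62, 1.53 and 0.802 CPM in the cecum, followed the B cell genes across cecum libraries. The H2-Eb2 call was lost without any 1 of the 4 colon libraries (adjusted p = 0.0578 to 0.0669).

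**Figure D4:**
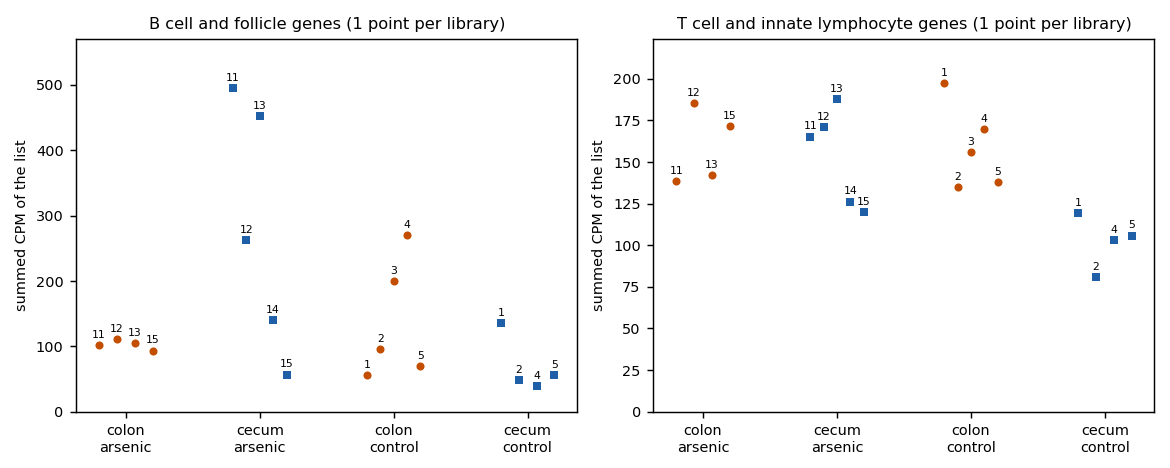
Summed CPM of the B cell and follicle genes and of the T cell and innate lymphocyte genes, 1 point per library with its number, for colon and cecum on arsenic feed and then on control feed. Cecum arsenic libraries 11 and 13 reach 495 and 453 CPM of B cell genes while the 4 colon arsenic libraries sit between 93.6 and 111 CPM.

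Junction, keratin and nutrient transporter genes completed the epithelial picture. Of 24 tested tight junction genes, 10 were called higher and 4 lower, which became 17 and 2 without a scaling factor. Cldn8, a sealing claudin of the distal colon, had 79.7, 27.5, 55.6 and 43.5 CPM in the colon, against 7.04, 6.47, 7.56, 6.06 and 5.01 CPM in the cecum and rose by 3.06 ± 0.30 (log2, adjusted p = 4.45e-05). Cldn15, which forms sodium pores, had 62.3, 85.7, 81.9 and 81.7 CPM in the colon, against 131, 141, 132, 140.2 and 149 CPM in the cecum and fell by 0.78 ± 0.08 (log2, adjusted p = 1.64e-05). Colonocyte keratins, CEACAMs and microvillus genes were called lower in 17 of 31 (11 without a scaling factor) and higher in 5, with a median of -0.25. Lgals3, a galectin of surface cells, had 2063, 2279, 2363 and 2162 CPM in the colon, against 3692, 3635, 3406, 3765 and 3685 CPM in the cecum and fell by 0.66 ± 0.06 (log2, adjusted p = 4.93e-06). Espn, the actin bundler espin of microvilli, had 143, 166, 152 and 165 CPM in the colon, against 256, 273, 249.9, 295 and 286 CPM in the cecum and fell by 0.75 ± 0.07 (log2, adjusted p = 3.88e-06). Krt23, a type I keratin, had 10.5, 8.1, 9.52 and 9.8 CPM in the colon, against 1.78, 2.74, 1.56, 1.94 and 2.54 CPM in the cecum and rose by 2.22 ± 0.17 (log2, adjusted p = 1.89e-06). All 5 of these epithelial genes were apart between the organs. Amino acid and peptide transporters were called higher in 12 of 18, with 6 not called and a median of 0.82. Slc6a14, a broad transporter of neutral and cationic amino acids, had 732, 1032, 864 and 998 CPM in the colon, against 480.4, 502, 538, 462 and 537 CPM in the cecum and rose by 0.9 ± 0.09 (log2, adjusted p = 1.45e-05). Slc7a8, a basolateral exchanger, had 20.4, 17.7, 14 and 15.9 CPM in the colon, against 6.66, 6.78, 3.75, 8.06 and 5.15 CPM in the cecum and rose by 1.53 ± 0.19 (log2, adjusted p = 5.48e-05). Sugar transporters were called higher in 2 of 9 and lower in 4. Slc5a1, the sodium-glucose cotransporter SGLT1, had 199.7, 171, 139.8 and 183 CPM in the colon, against 69.5, 86.6, 80.02, 108 and 71.7 CPM in the cecum and rose by 1.11 ± 0.14 (log2, adjusted p = 8.02e-05). Slc2a1, the glucose transporter GLUT1, had 236, 188, 214 and 191 CPM in the colon, against 355, 318, 318, 276 and 359 CPM in the cecum and fell by 0.6 ± 0.10 (log2, adjusted p = 0.000283). Slc37a2, a sugar phosphate exchanger, had 419, 108, 169 and 220.2 CPM in the colon, against 1525, 1443, 1290.3, 1586 and 1613 CPM in the cecum, spread widely over the colon libraries, and fell by 2.65 ± 0.38 (log2, adjusted p = 0.000534).

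Most genes called on arsenic feed had the same direction on the other feed, but some gene lists did not. Median log2 fold changes of the B cell, T cell and MHC class II lists were -1.78, -0.63 and -0.10 on arsenic feed. They were 1.30, 0.21 and 1.19 on control feed. Ribosomal protein genes were called lower in 21 of 43 on arsenic feed and in 1 of 43 on control feed. None of the genes of these lists passed the test of a difference between feeds. On control feed 6968 of 16113 genes were called (43.2%), 3720 higher (23.1%) and 3248 lower (20.2%). Of 15838 genes tested on both feeds, 8065 were called on arsenic feed and 6880 on control feed. The calls shared with the same direction were 5542, which is 68.7% of the arsenic calls and 80.6% of the control calls, and 12 genes were called in opposite directions. Of 2483 calls on arsenic feed over 2-fold, 2428 had the same sign on control feed. The control contrast was noisier, with a common biological coefficient of variation of 0.227 against 0.156 on arsenic feed.

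A difference of the contrast between the feeds was called in 1 of 17004 genes (0.00588%), with 1643 at an unadjusted p under 0.05. In simulated data with 200 changed genes, this test recovered 48% of 2-fold and 72% of 4-fold changes, so real differences can be missed. The gene called was Elmsan1, a component of a histone deacetylase complex, with 92.1, 92.8, 84 and 83.9 CPM in the colon, against 169, 171, 174, 145 and 149 CPM in the cecum. It fell by 0.82 ± 0.08 (log2, adjusted p = 5.71e-06) on arsenic feed and fell by 1.64 ± 0.09 on control feed, where it averaged 75.3 ± 6.86 CPM in the colon (SD, n = 5) and 237 ± 19.7 CPM in the cecum (SD, n = 4). The difference between the feeds was 0.78 ± 0.11 (log2, adjusted p = 0.0364). Its adjusted p stayed under 0.05 without cecum control library 4 or 5, cecum arsenic library 13 or colon control library 1, 2 or 5, and was up to 0.162 without each of the other 12. Next came Plin3, a lipid droplet protein, and Gch1, the first enzyme of tetrahydrobiopterin synthesis, both at adjusted p = 0.0638. Gch1 averaged 33.4 ± 4.67 CPM in the colon (SD, n = 4) and 25.3 ± 1.83 CPM in the cecum (SD, n = 5) on arsenic feed and 34.5 ± 7.62 CPM in the colon (SD, n = 5) and 59.4 ± 9.32 CPM in the cecum (SD, n = 4) on control feed. Its log2 difference was 0.46 on arsenic feed and -0.77 on control feed, both called. Sprr1a averaged 20.7 ± 9.09 CPM in the colon (SD, n = 4) and 73.2 ± 11.5 CPM in the cecum (SD, n = 5) on arsenic feed and 12.4 ± 3.63 CPM in the colon (SD, n = 5) and 185 ± 19.6 CPM in the cecum (SD, n = 4) on control feed (difference between feeds 2.08, adjusted p = 0.0702).

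**Figure D5:**
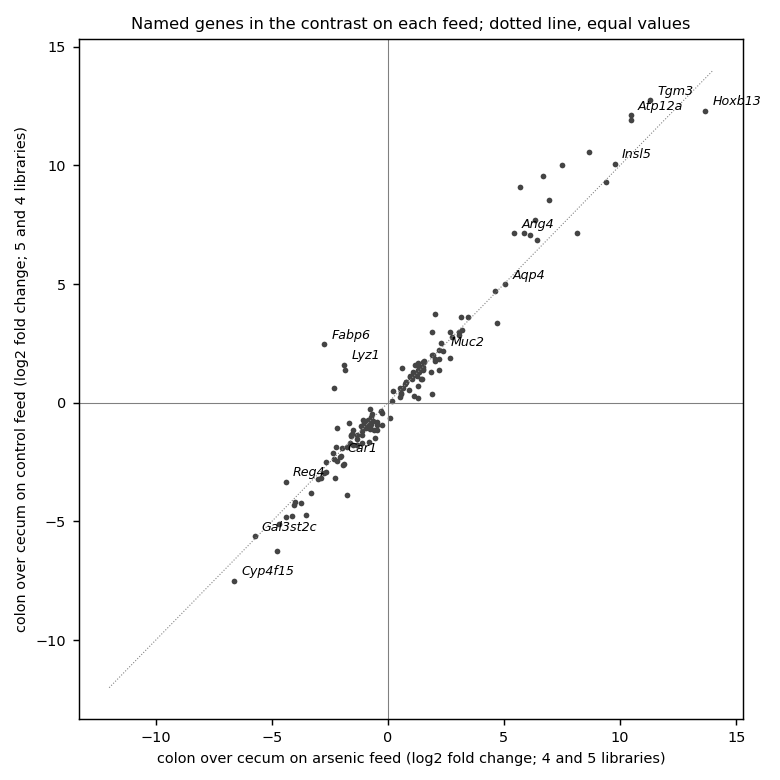
Log2 fold change of colon over cecum on arsenic feed (horizontal axis, 4 and 5 libraries) against control feed (vertical axis, 5 and 4 libraries) for 153 genes named in the text with values and tested on both feeds, 1 point per gene, dotted line for equal values. The sign is the same for 148 of them, and Fabp6 and Lyz1 are among those with opposite signs. Fitted values of genes with no counts in the cecum, such as Hoxb13, depend on the prior count.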

How the data were processed

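The authors deposited raw counts for 52550 Ensembl genes, with a column for each library, and the columns were mapped to samples by their names. Per the submitters' processing notes the tools were HISAT2 2.1.0, SAMtools, HTSeq 0.6.0 and DESeq2 1.6.3. The build and the strand setting are not given in the sources used here. Counts of antisense, overlapping and near-identical genes are therefore uncertain. Symbols were matched for all but 147 genes, whose share of a library was 0.00337 to 0.0059%.

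The 4 colon and 5 cecum libraries on arsenic feed were fitted with edgeR 4.0.16 in R 4.3.3 (quasi-likelihood F-test, robust, TMM scaling). Low genes were removed by filterByExpr, with 10 as the minimum count and 15 as the minimum total. A gene was called when its 2-sided p, adjusted after Benjamini and Hochberg over all genes tested, was under 0.05. The control contrast used the same test on 9 other libraries, and the difference of the contrasts was tested in 1 fit of 18 libraries. Printed CPM use TMM factors over those 18 libraries, 1.0846 to 1.1007 in colon and 0.9238 to 0.9973 in cecum arsenic libraries. Standard errors are the log2 fold change over the square root of F. Counting intervals are exact, at 95%, and cover counting error only.

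Members and the 56 gene lists were chosen with earlier results of these data known. Named genes are the 15 largest changes in each direction with at least 10 CPM in the higher organ and no overlap, up to 3 called members per list and direction with the smallest p and at least 1 CPM, the 10 smallest p of the difference between feeds and a fixed set. Not all of these are printed, and some are not reported here. Hoxa9, Hoxa10, Hoxb9, Hoxc10, Defa24, S100a8, S100a9 and Pou2f3 were added after their values were seen.

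Alternatives were other scalings (RLE, upper quartile, none), other filters, DESeq2 1.42.0, limma 3.58.1 voom with quality weights, a test against 1.5-fold, wider fits, a replicate block and each library left out. The procedure was tested on simulated data. For the arsenic contrast, with 16285 genes of which 200 were changed, 74% of 2-fold and 90% of 4-fold changes were recovered and 5.75% of calls were false. For the difference between feeds, 48% and 72% were recovered and 2.44% of calls were false. The changes had random directions and all other genes had equal means in the groups. In the data 50.3% of genes were called between the organs, so these rates need not hold there.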

Additional observations from a re-analysis of the deposited data

Results flagged for a closer look

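In 20 of 309 groups of 4 or 5 values, 1 library stood far from the others by Dixon's criterion (the gap to the nearest other library as a share of the range of its group, at the 95% level). Chance flags about 1 in 20 such groups, and no explanation was tested. That rate does not apply where 1 library holds the only count and the others hold 0, since that library is always flagged. Insl5 in cecum library 12 and Hoxd13 in cecum library 15 are of that kind, with 1 count each.

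In colon library 11, Aqp3 was at 0.835 CPM, above the 0.105 to 0.16 CPM of the other colon libraries. There Cldn15 was at 62.3 CPM, below 81.7 to 85.7. There Creb3l3 was at 25.8 CPM, above 14.8 to 16.5. There Oas3 was at 56.3 CPM, below 118 to 123. There Plin3 was at 74.5 CPM, above 65.7 to 66.8. There Uqcrfs1 was at 269 CPM, below 309 to 313. There mt-Co1 was at 23651 CPM, below 27954 to 28327. In colon library 12, Hmox1 was at 7.14 CPM, above the 4.97 to 5.23 CPM of the other colon libraries. There Hspa1b was at 36.5 CPM, below 39.8 to 40.1. There Slc7a11 was at 1.07 CPM, below 1.61 to 1.67. In colon library 13, Ccn2 was at 40.4 CPM, above the 16.8 to 19.8 CPM of the other colon libraries. There Ffar2 was at 13.7 CPM, above 8.31 to 9.19.

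In cecum library 11, Slc4a7 was at 449.8 CPM, above the 392 to 408 CPM of the other cecum libraries. In cecum library 12, Hoxc10 was at 1.31 CPM, above the 0.735 to 0.882 CPM of the other cecum libraries. There Insl5 was at 0.0622 CPM, above 0. In cecum library 13, Hoxa11 was at 4.37 CPM, above the 2.0 to 2.6 CPM of the other cecum libraries. In cecum library 14, Abcc2 was at 8.64 CPM, above the 2.41 to 3.92 CPM of the other cecum libraries. In cecum library 15, Acaa1b was at 84.5 CPM, above the 63.9 to 69.8 CPM of the other cecum libraries. There Hoxd13 was at 0.0668 CPM, above 0. There Slc12a2 was at 83.1 CPM, below 95 to 98.

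Elmsan1 was the gene whose contrast differed between the feeds by the test of the difference itself. Its colon minus cecum log2 difference was 0.78 higher on arsenic feed than on control feed (edgeR adjusted p = 0.0364), and the call depended on single libraries, as given with its values in the results.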

How the results depend on the processing

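The number of genes called on arsenic feed was 7936 to 8472 under RLE scaling, upper-quartile scaling, no scaling, no filter, a filter of 1 CPM, DESeq2 and limma voom, against 8185. It was 6576 with all 14 arsenic libraries in 1 fit, 7858 with 18 libraries in 1 fit and 7390 to 8089 with 1 library left out. Without a scaling factor 2247 genes were called lower in the colon. Against a fold of 1.5, 2587 genes were called, 2027 higher and 560 lower, and 302 instead of 702 list genes. On control feed the number was 5553 to 8356 with 1 library left out, the highest without colon control library 1. For the difference between feeds, the count of 1 became 0 under RLE scaling, upper-quartile scaling, no scaling and 27 libraries in 1 fit, 2 without a filter and under limma voom, and 150 under DESeq2. It was 0 to 59 with 1 library left out, the 59 without colon control library 1, and the cause was not tested.

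Same-numbered colon and cecum libraries correlated at 0.031 to 0.259 on arsenic feed (3 of 4 colon libraries best with their own number) and 0.073 to 0.193 on control feed (4 of 4). That is a hint from the data that the numbers pair libraries, but the labels do not say so and 1 pair on each feed, at 0.031 and 0.073, lay under the 0.1 asked of every pair, so the block was kept as an alternative. With a replicate block, 7741 genes were called on arsenic feed, 6349 on control feed and 11 for the difference between feeds. Elmsan1 was not among the 11 (adjusted p = 0.0724), and As3mt was not called on arsenic feed (adjusted p = 0.0821). Of 3078 values of 154 named genes under alternatives, 3009 stayed on the same side of the threshold, 67 lost the call and 2 gained it. Among values called in either fit, 0 reversed direction. Sign changes of genes called in neither fit were counted as staying. As3mt, Cd79a and H2-Eb2 lost theirs with 1 library left out. With all arsenic libraries in 1 fit, the B cell list had 0 members called lower, the T cell list 4 and the arsenic handling list 8. Depth limits the lists too, since 1147 of 1323 list genes passed the filter on low counts.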

Other observations

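Heat shock genes went in both directions in the colon. Of 28 tested, 8 were called higher and 12 lower, with a median of -0.08 that turned to 0.06 without a scaling factor. Hspa1a and Hspa1b, near-identical inducible HSP70 genes whose counts may be split, were higher in every colon library. Hspa1a had 10.5, 6.98, 9.31 and 8.64 CPM in the colon, against 3.3, 4.04, 4.31, 3.82 and 3.41 CPM in the cecum and rose by 1.28 ± 0.15 (log2, adjusted p = 3.19e-05). Hspa1b had 40.1, 36.5, 39.8 and 40.1 CPM in the colon, against 17.5, 24.1, 19.1, 19.3 and 13.6 CPM in the cecum and rose by 1.11 ± 0.13 (log2, adjusted p = 3.05e-05). Cryab, the small heat shock protein of muscle, had 33.6, 20.6, 25.9 and 24.4 CPM in the colon, against 13.6, 15.4, 12.5, 10.2 and 11.8 CPM in the cecum and rose by 1.09 ± 0.15 (log2, adjusted p = 0.000115). Hspd1 and Hspe1, the chaperonin pair of mitochondria, fell by 1.01 and fell by 0.70 on the log2 scale. Hspd1 had 122, 148, 156 and 138 CPM in the colon, against 304, 307, 280.03, 299 and 285 CPM in the cecum, with no overlap. On control feed the log2 difference of Hspa1a was 0.20 (adjusted p = 0.671), and the difference between feeds was not called (adjusted p = 0.386).

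Clock genes were called higher in 11 of 19, with 8 not called and a median of 0.36. Per2, a period gene, had 39.97, 44.1, 45.3 and 47.7 CPM in the colon, against 22.8, 30.3, 28.7, 24.7 and 30.1 CPM in the cecum and rose by 0.75 ± 0.09 (log2, adjusted p = 4.86e-05), and Hlf, a clock output factor, had 25.7, 23.4, 18.8 and 23.3 CPM in the colon, against 10.7, 13.6, 9.81, 12.2 and 11.3 CPM in the cecum and rose by 1.04 ± 0.11 (log2, adjusted p = 2.03e-05). The number called higher was 7 without colon library 12 or 15. Times of dissection are not in the labels. Of 27 immediate early and dissociation genes, 11 were called higher and 2 lower, which is 48.1% called, against 50.3% of all genes tested. Ccn2, a matricellular target of mechanical signalling, had 19.1, 19.8, 40.4 and 16.8 CPM in the colon, against 5.01, 2.8, 3.44, 4.65 and 2.41 CPM in the cecum and rose by 2.76 ± 0.31 (log2, adjusted p = 7.29e-05), and Ccn1, its relative, had 17.1, 19.98, 42.7 and 11.2 CPM in the colon, against 3.04, 4.04, 4.31, 3.41 and 3.54 CPM in the cecum and rose by 2.68 ± 0.37 (log2, adjusted p = 0.00029). Colon library 13 was the highest in both.

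Interferon response genes were called higher in 12 of 44 and lower in 4, with a median of 0.04 that turned to between -0.05 and -0.02 without cecum library 14 or colon library 12 or 15. That is 36.4% called, below the 50.3% of all genes tested. Cxcl10, a chemokine induced by interferon, had 6.46, 5.75, 4.71 and 8.42 CPM in the colon, against 1.84, 1.99, 1.94, 1.53 and 1.54 CPM in the cecum and rose by 1.89 ± 0.19 (log2, adjusted p = 1.22e-05). Oas3, an antiviral sensor, had 56.3, 123, 121 and 118 CPM in the colon, against 181, 197, 177, 159 and 204 CPM in the cecum and fell by 0.76 ± 0.21 (log2, adjusted p = 0.0138). Cholesterol synthesis genes were called lower in 8 of 26 and 18 were not called, with a median of -0.23, and 13 were called lower without colon library 11.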
